A study of Mus musculus with 6 samples.

Results

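Socs3, Zfp36, Cyr61, Mir155 and Dusp26 are 5 genes of cytokine feedback, of the immediate-early response or of related phosphatase signalling, and each lay nearest to at least 1 NRF2 peak in mouse embryonic fibroblasts (MEFs). They were chosen by score rank and by the presence or absence of their peaks between the lists analysed here, so their presence patterns and ranks are given as a description, with no test. All peaks that the authors' nearest-gene annotation assigned to them were collected at any distance from the transcription start site (TSS). This gave 19 peaks of the 16057 in the 4 lists, and 5 genes of the 8030 that had an assigned peak. The NRF2 libraries came from GCN2-/- MEFs (GCN2 KO) in DMEM without leucine (leucine-free), GCN2 KO MEFs in complete DMEM, wild-type (WT) MEFs without leucine and WT MEFs in complete DMEM. All were of the 129S6/SvEvTac strain and spent 24 h in their medium. GCN2 is the kinase, encoded by Eif2ak4, that responds to amino acid shortage. There was 1 library per condition, and the labels do not say how many animals or lines each genotype stands for. The 2 input libraries, both from complete medium, served as the controls of the peak calls, also for the cells without leucine.

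NRF2 binds antioxidant response elements together with a small Maf protein and activates genes of redox defence. Cytokine receptors and growth factors switch on a fast layer of genes that limit or relay the signal. SOCS3 blocks the receptor-bound JAK kinases that activate STAT factors, tristetraprolin, the product of Zfp36, speeds the decay of mRNAs with AU-rich elements such as that of tumour necrosis factor, and the microRNA miR-155 is induced in inflammation and represses Socs1 and Bach1, among other mRNAs. Cyr61, now named Ccn1, encodes a secreted matricellular protein and is a classical immediate-early gene, and Dusp26 encodes an atypical dual-specificity phosphatase.

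The miR-155 gene gives rise to 2 mature strands, which are shown because they are the products of the gene to which the Mir155 peaks were assigned. In these RefSeq sequences (GRCm38.p6, the assembly of mm10, plus strand, chr16:84714143-84714165 and chr16:84714182-84714202) the capitals mark the seed, bases 2 to 8, and the 2 seeds differ.
mmu-miR-155-5p: uUAAUGCUaauugugauaggggu
mmu-miR-155-3p: cUCCUACCuguuagcauuaac

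RefSeq promoter windows, from 250 bases before to 50 after the start, were at hand for Socs3, Zfp36 and Cyr61. No NRF2 peak of any list overlapped them, and the nearest peak of the same gene lay 1028, 1860 and 8447 bases away, in that order. Both strands were searched for the antioxidant response element core TGACNNNGC, the AP-1 site TGANTCA, the STAT site TTCNNNGAA and the cAMP response element TGACGTCA. These letters occur in 12.4%, 7.81%, 8.30% and 1.79% of all 32851 RefSeq promoter windows. Socs3 and Zfp36 each held 1 STAT match, and Cyr61 held 1 antioxidant response element match, read on the strand opposite to the gene. The other searches gave no match in these windows. The stretches of 30 bases around the matches are shown 5' to 3' on the strand of the gene, the minus strand in each case, with the match in capitals. They lie at chr11:117969502-117969531, chr7:28379229-28379258 and chr3:145650029-145650058, and the first capital is 154, 17 and 62 bases before the start. The Socs3 stretch lies within the longer span that the gene table gives Socs3 with its predicted transcripts.
Socs3: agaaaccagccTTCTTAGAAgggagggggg
Zfp36: gccacagcctgacTTCTGCGAAccgacagt
Cyr61: gcgccgacagaGCTACGTCActgcaacacg

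The 19 peaks comprised 5 in leucine-free GCN2 KO cells, 4 in complete-medium GCN2 KO cells, 6 in leucine-free WT cells and 4 in complete-medium WT cells. They were assigned to 3, 4, 4 and 4 of the 5 genes, in the same order. Every gene had an assigned peak in at least 1 list of each genotype. For Cyr61 in WT cells this was only a peak in complete medium at -34654 bp from the TSS, away from its best-ranked site. Across 23124 protein-coding and microRNA genes, 13.4% had an assigned peak in leucine-free GCN2 KO cells, 9.86% in complete-medium GCN2 KO cells, 17.2% in leucine-free WT cells and 7.88% in complete-medium WT cells. The genes were picked because they had peaks, so nothing is read from the difference. Peaks that shared at least 1 bp were joined into regions, which gave 10 regions for the 5 genes. One region per gene, its best-ranked one, recurred between lists, and the other 5 regions were each in a single list. Of the 5 best-ranked regions, 4 were in 3 lists, 1 was in 2 lists and none was in all 4. Over all 14390 regions, 6.54% were in 2 or more lists and 3.23% in 3 or more. The 19 windows were annotated as intergenic in 13 cases, as Socs3 exon in 3 and as an intron in 3, and none was annotated as promoter. Window positions are given on mm10, as in the deposited lists.

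The recurring NRF2 site of Socs3 lay inside the gene, in exon 2 of 2 on chromosome 11. The window was 117967882 to 117968182 in complete-medium GCN2 KO cells, 117967861 to 117968161 in leucine-free WT cells and 117967988 to 117968288 in complete-medium WT cells. Their centres were 1334, 1355 and 1228 bp downstream of the TSS. The authors' score, a whole number given per peak that orders peaks within a list, was 163, 246 and 45 in these lists. The site ranked 83 of 3141 in complete-medium GCN2 KO cells, 79 of 5980 in leucine-free WT cells and 874 of 2336 in complete-medium WT cells. These ranks correspond to 2.64%, 1.32% and 37.4% of the list length, so the site stood near the top of the first 2 of these lists and well down the last. No peak was assigned to Socs3 in leucine-free GCN2 KO cells. The peak of that list closest to the site was 53529 bp away and assigned to Tha1. Leucine-free WT cells had an additional intergenic Socs3 peak at 117929179 to 117929479, 40037 bp downstream of the TSS, ranked 1524 of 5980. It lay 18670 bp from Gm11725, a long non-coding RNA gene, and 36600 bp from Socs3.

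Zfp36 carried 1 recurring site upstream of the gene. Its windows on chromosome 7 were 28381419 to 28381719 in leucine-free GCN2 KO cells, 28381360 to 28381660 in leucine-free WT cells and 28381339 to 28381639 in complete-medium WT cells, centred at -2341, -2282 and -2261 bp from the TSS. The scores were 167, 149 and 90. The site ranked 106 of 4600 (2.30%) in leucine-free GCN2 KO cells, 182 of 5980 (3.04%) in leucine-free WT cells and 263 of 2336 (11.3%) in complete-medium WT cells. It was intergenic, 2111 bp beyond the 5' end of Zfp36 and 3528 bp from Med29, a Mediator subunit gene on the other side. Complete-medium GCN2 KO cells had no Zfp36 peak, and their closest peak was 75575 bp away and assigned to Dll3.

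Cyr61 was the member whose best-ranked site was in GCN2 KO lists alone. The windows were 145641188 to 145641488 in leucine-free GCN2 KO cells and 145641154 to 145641454 in complete-medium GCN2 KO cells, on chromosome 3. They were centred 8647 and 8681 bp downstream of the TSS, 5483 bp past the end of the gene. The scores were 94 and 98, with ranks of 246 of 4600 (5.35%) and 187 of 3141 (5.95%). The WT lists held no peak there. Complete-medium WT cells had another Cyr61 peak, at 145684489 to 145684789 and -34654 bp from the TSS, with score 32 and rank 1419 of 2336 (60.7%). A long non-coding RNA gene, Gm17501, was closer to that peak, at 6662 bp. Leucine-free WT cells had no Cyr61 peak at all. No peak of any list within 100 kb of the recurring site was assigned to another gene.

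The site assigned to Mir155 lay inside another gene. It was in intron 8 of 9 of Mrpl39, a mitochondrial ribosomal protein gene, and 5345 bp from Mir155hg, the host transcript of the microRNA. The windows on chromosome 16 were 84720590 to 84720890 in complete-medium GCN2 KO cells, 84720617 to 84720917 in leucine-free WT cells and 84720634 to 84720934 in complete-medium WT cells. Their centres were 6600, 6627 and 6644 bp downstream of the TSS annotated for Mir155. That start is the one of the microRNA gene, close to its mature strands, and the start of the host transcript was not used. The scores were 97, 126 and 79, and the ranks were 190 of 3141 (6.05%), 223 of 5980 (3.73%) and 314 of 2336 (13.4%). Leucine-free GCN2 KO cells had no peak here and none within 100 kb of the site. The detailed annotation placed the first 2 of these windows in a B3 SINE repeat and the last, shifted by 17 bp from its neighbour, in the intron alone.

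Dusp26 had the most scattered peaks, all upstream of the gene on chromosome 8. The recurring site was 31080819 to 31081119 in leucine-free GCN2 KO cells, 31080752 to 31081052 in complete-medium GCN2 KO cells and 31080823 to 31081123 in leucine-free WT cells, at -8693, -8760 and -8689 bp. The scores were 98, 133 and 74, and the ranks were 229 of 4600 (4.98%), 116 of 3141 (3.69%) and 463 of 5980 (7.74%). Complete-medium WT cells had no Dusp26 peak and no peak within 100 kb of the site. The windows of both lists without leucine were annotated to a B1F SINE repeat, whereas that of complete-medium GCN2 KO cells was annotated as intergenic. Leucine-free GCN2 KO cells had 2 further peaks, at -7343 bp (31082169 to 31082469, rank 751 of 4600) and at -48497 bp (31041015 to 31041315, rank 670 of 4600). The window at -7343 bp lay 1049 bases from the recurring one, so the 2 did not overlap. Leucine-free WT cells had 1 further peak, at -185227 bp (30904285 to 30904585, rank 2557 of 5980). These 3 windows were annotated to LTR retroelements. Long non-coding RNA genes were closer than Dusp26 to the 2 far ones. Gm32735 was 10912 bp from the window at -185227 bp, and Gm32841 was 31521 bp from the window at -48497 bp.

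**Figure D1:**
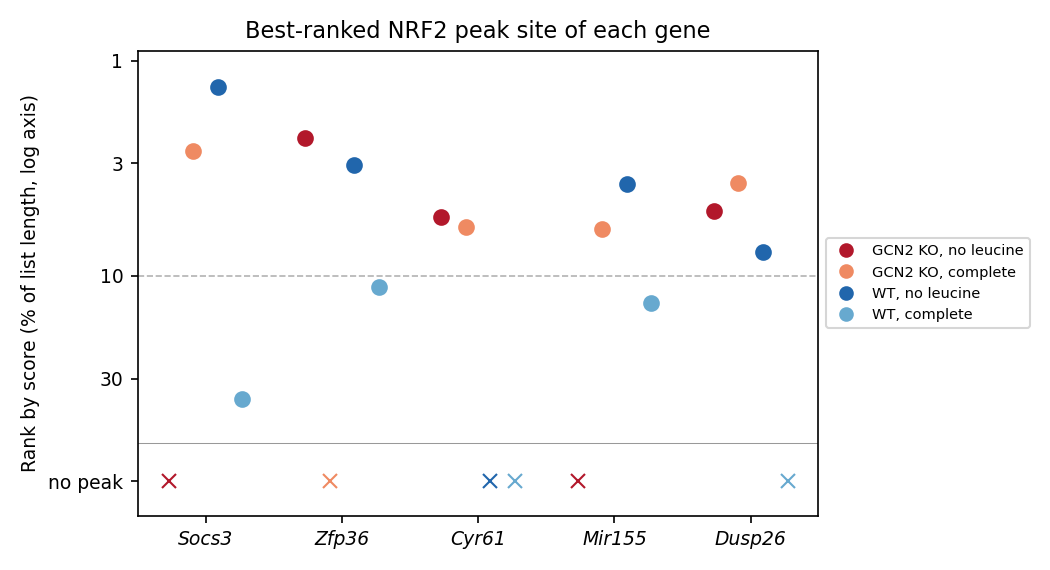
Rank by score of each gene's best-ranked NRF2 site, as a percentage of the list length on a log axis with the top of the list upward. Each point is 1 library, crosses mark lists with no peak at the site, the dashed line marks the highest-scoring 10%, and 11 of the 14 points lie above it.

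**Figure D2:**
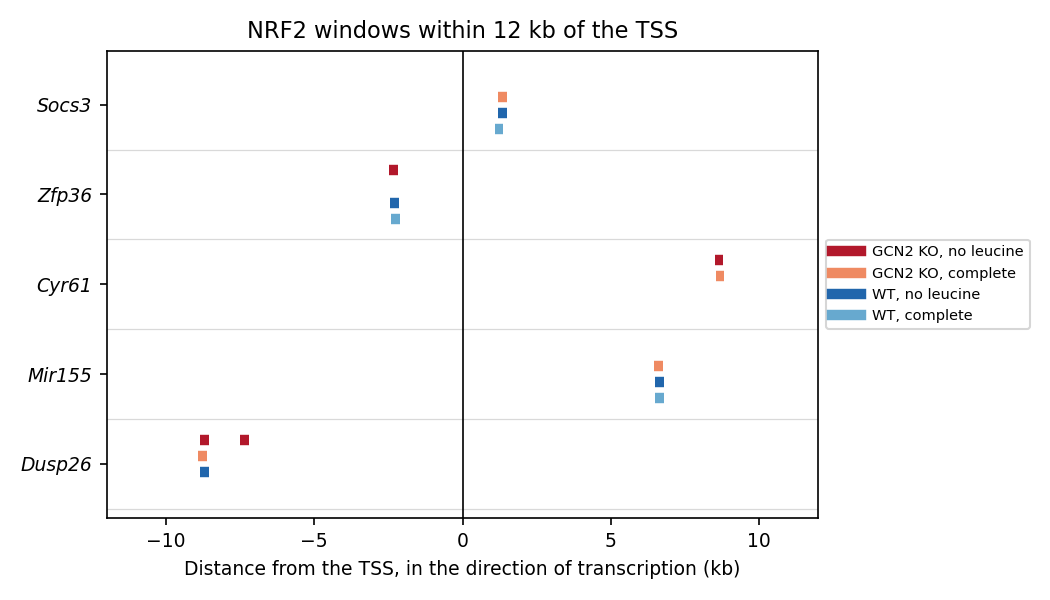
Position of the NRF2 windows within 12 kb of each TSS, with downstream to the right and 1 row per library in the colours of the key. The windows of a gene line up between lists, and leucine-free GCN2 KO cells show a separate Dusp26 window at -7343 bp.

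The presence of the recurring sites was then set out by comparison. Without leucine against complete medium in GCN2 KO cells, Cyr61 and Dusp26 were in both lists, Zfp36 was in the list without leucine alone, and Socs3 and Mir155 were in the complete-medium list alone. In the highest-scoring 10% of these lists, 40.5% (95% interval 36.0 to 45.1) of peaks without leucine had no overlap in complete medium, and 27.7% (22.9 to 32.9) of those in complete medium had none without leucine. Without leucine against complete medium in WT cells, Socs3, Zfp36 and Mir155 were in both lists, Dusp26 was in the list without leucine alone and Cyr61 was in neither. Of the highest-scoring 10%, 36.3% (32.5 to 40.3) without leucine and 7.30% (4.31 to 11.4) in complete medium had no overlap in the other list.

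Between the genotypes without leucine, Zfp36 and Dusp26 were in both lists, Cyr61 was in the GCN2 KO list alone, and Socs3 and Mir155 were in the WT list alone. The corresponding shares of peaks without overlap were 33.0% (28.7 to 37.5) in GCN2 KO cells and 46.0% (42.0 to 50.0) in WT cells. In complete medium, Socs3 and Mir155 were in both lists, Cyr61 and Dusp26 were in the GCN2 KO list alone and Zfp36 was in the WT list alone, where the shares without overlap were 30.8% (25.8 to 36.1) in GCN2 KO cells and 25.8% (20.3 to 31.9) in WT cells. The sites in complete-medium WT cells ranked below the highest 10%, so that list's shares do not describe peaks of their rank. Absence from 1 of 2 lists was thus common among peaks of high score, at 25.8% to 46.0%, in all but 1 direction. The exception was 7.30%, for peaks of complete-medium WT cells without overlap in leucine-free WT cells. The lists differ in length, which can affect these shares, and the genes were picked for such absence. Socs3 and Mir155 shared 1 pattern, missing from leucine-free GCN2 KO cells, which 59 of 14390 regions (0.41%) showed. The Zfp36 pattern was shown by 72 regions (0.50%), the Dusp26 pattern by 51 (0.354%) and the Cyr61 pattern by 97 (0.674%). Only 6.54% of all regions were in 2 or more lists, so these small shares do not mark the patterns as unusual among shared regions. Absence from a list means only that no peak passed the authors' threshold there, and the read depth behind the lists is unknown, so weaker binding and lower depth cannot be told apart.

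All 11 recurring-site peaks outside the list of complete-medium WT cells were in the highest-scoring 10% of their list, and none of the 5 other peaks was. The genes were chosen by score rank and the recurring site is each gene's best-ranked one, so this difference was partly fixed by the choice. The 3 recurring-site peaks of complete-medium WT cells stood at 11.3% to 37.4%. Lists differ in length, so this does not measure a change in binding. Established NRF2 target genes are given for scale. The best Hmox1 site, at the heme oxygenase 1 gene, stood at 0.304% in leucine-free GCN2 KO cells, 0.446% in complete-medium GCN2 KO cells, 0.217% in leucine-free WT cells and 3.51% in complete-medium WT cells. Nqo1, the quinone reductase gene, stood at 14.6%, 14.4%, 6.07% and 93.7% in that order. Gclc, a gene of glutathione synthesis, stood at 0.50%, 0.478%, 0.100% and 0.171% in the same order. Hmox1 and Nqo1 thus also stood lowest in complete-medium WT cells and Gclc did not.

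Windows of the same site were closely placed. Overlaps ranged from 174 to 280 bp at Socs3, 221 to 280 bp at Zfp36, 257 to 284 bp at Mir155 and 230 to 297 bp at Dusp26, and came to 267 bp at Cyr61. The largest distance between centres was 127 bp, at Socs3.

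Base composition was not used to choose the genes, and the Socs3 exon had the highest GC and CpG content of the 10 regions. GC content, as a fraction of the window, was 0.641 in complete-medium GCN2 KO cells, 0.631 in leucine-free WT cells and 0.678 in complete-medium WT cells at the Socs3 exon. Only 1.31%, 2.22% and 1.07% of the windows in these lists had as much or more. Its CpG content was 0.0933, 0.0933 and 0.110, a level reached by 0.764%, 1.09% and 0.771% of windows. The list medians were 0.518, 0.522, 0.52 and 0.512 for GC, in the order of groups given at the start, and 0.0133 for CpG in each list. Zfp36 windows had a GC content of 0.522 to 0.532, near those medians, and a CpG content of 0.0233 to 0.0267. The recurring sites of Cyr61 (0.468 and 0.478), Mir155 (0.495 to 0.508) and Dusp26 (0.429 to 0.485) were below their lists' GC medians. The part of base composition in the Socs3 peaks was not tested.

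**Figure D3:**
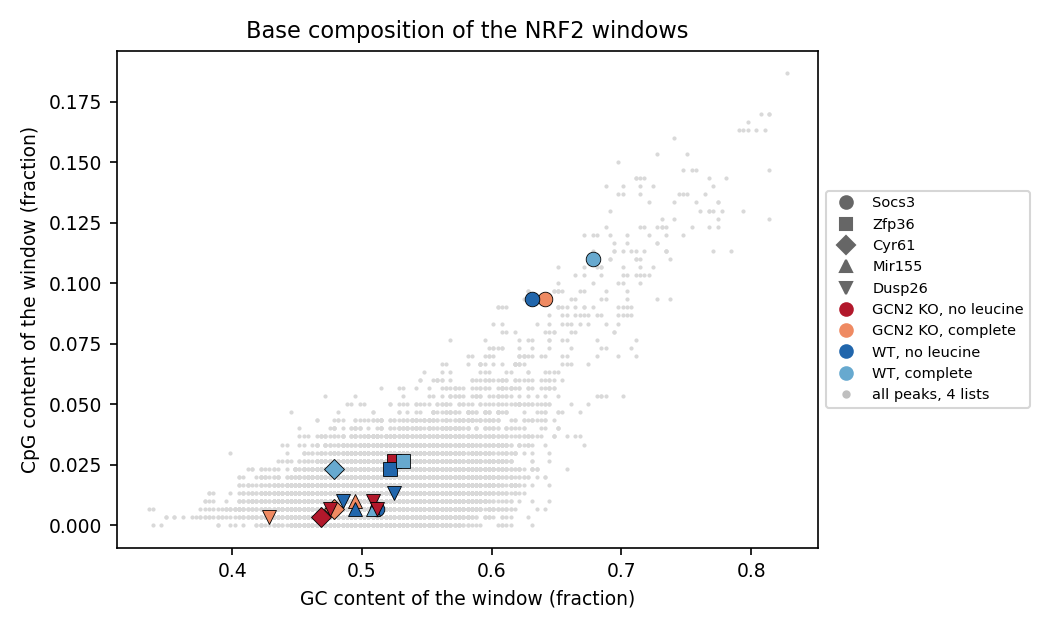
CpG content against GC content, both as fractions of the window, for all 16057 peaks (grey) and for the 19 windows of the 5 genes (shape for gene, colour for library). The 3 windows in the Socs3 exon sit at GC contents of 0.631 to 0.678, apart from the other 16.

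Repeat elements were a further difference among the genes. Of the 19 windows, 7 were annotated to a repeat, 5 of them at Dusp26 and 2 at Mir155, and none at Socs3, Zfp36 or Cyr61. They numbered 3 of 5 in leucine-free GCN2 KO cells, 1 of 4 in complete-medium GCN2 KO cells, 3 of 6 in leucine-free WT cells and 0 of 4 in complete-medium WT cells, against 30%, 26.7%, 25.1% and 26.2% of all windows. Without the windows annotated to repeats, the Mir155 and Dusp26 sites were each in 1 list rather than 3, although the remaining window overlapped the ones left out. The part of repeats in these peaks was not tested.

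The relatives of these genes in the same pathways were mostly without a peak. Among 7 lists with 119 distinct genes, the 114 genes other than the 5 members included, counting peaks up to 10 kb from the TSS, 4 in leucine-free GCN2 KO cells, 4 in complete-medium GCN2 KO cells, 7 in leucine-free WT cells and 4 in complete-medium WT cells. These are 3.51%, 3.51%, 6.14% and 3.51%, beside 4.0%, 3.07%, 6.21% and 2.26% of all genes, so the shares within this distance were near the background. At any distance they were 16.7%, 14.0%, 22.8% and 14.9% of the 114 genes, beside 13.4%, 9.86%, 17.2% and 7.88% of all genes, and no test was made of the difference. Only 2 of the 17 genes found in this way had a peak in more than 1 list. Fosl1, an AP-1 subunit gene, had the same intron 1 site in both lists without leucine, at rank 3090 of 4600 in GCN2 KO cells and 428 of 5980 in WT cells. Dusp4, a nuclear phosphatase of MAP kinases, had an intron 1 site in complete-medium GCN2 KO cells (rank 945 of 3141) and in leucine-free WT cells (rank 2557 of 5980).

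Among the 17 other genes of JAK-STAT feedback, Socs2, a relative of Socs3 that limits growth hormone signalling, had a promoter peak 331 bp from the TSS in leucine-free GCN2 KO cells. Ptpn1, a tyrosine phosphatase gene, had a peak in complete-medium GCN2 KO cells and Socs4 had one in complete-medium WT cells. Of 12 other genes of mRNA-decay feedback, Khsrp (GCN2 KO, complete medium), Zc3h12c (WT without leucine) and Rc3h2 (WT, complete medium) had 1 each. Of 13 genes of NF-kB feedback, Tnfaip3, which encodes the ubiquitin-editing enzyme A20, had a peak in leucine-free GCN2 KO cells, Bcl3 in leucine-free WT cells and Nfkb2 in complete-medium WT cells. In the CCN family, where Cyr61 has 5 relatives, Wisp2 had a peak in leucine-free WT cells and Nov in complete-medium WT cells. Each gene named in this paragraph had its peak in a single list, at ranks from 7.46% (Zc3h12c) to 97.8% (Rc3h2) of the list length. Of all genes, 4.0%, 3.07%, 6.21% and 2.26% had a peak within 10 kb, in the order of groups given at the start. Nothing is read from these genes.

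Of the 30 other immediate-early genes, Klf2, Maff, a small Maf gene, and Fosl1 had a peak in leucine-free WT cells. This gave 3 genes there, 1 in leucine-free GCN2 KO cells and 0 in both complete-medium lists. Of all genes, 6.21% in leucine-free WT cells and 4.0% in leucine-free GCN2 KO cells had a peak within 10 kb. The complete-medium shares were 3.07% in GCN2 KO and 2.26% in WT cells. Within 10 kb at the length of the shortest list, the counts were 1 in leucine-free WT cells and 0 in every other list. Counting peaks at any distance, they were 9 in leucine-free WT cells and 7 in every other list. With so few genes, nothing is read from the difference between media. Of 23 other dual-specificity phosphatase genes, Dusp8 had a peak in leucine-free GCN2 KO cells and Dusp13 in complete-medium GCN2 KO cells, beside Dusp4. None of the 16 other inflammation-linked microRNA genes had a peak within 10 kb in any list. With so few genes and the low shares of all genes, nothing is read from this absence. At any distance 3, 0, 1 and 1 of them had a peak, in the order of groups given at the start. Ranks of the genes with a peak in 1 list ran from 446 of 5980 (7.46%) for Zc3h12c to 2284 of 2336 (97.8%) for Rc3h2.

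**Figure D4:**
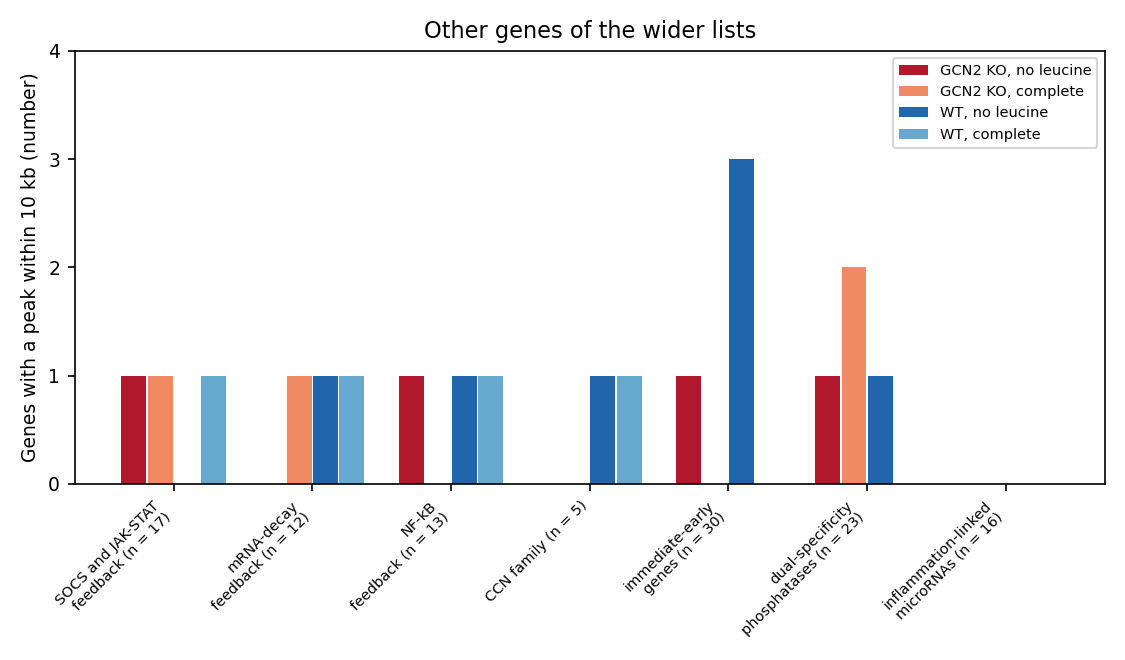
Number of genes with an NRF2 peak up to 10 kb from the TSS in each of the 7 lists, without Socs3, Zfp36, Cyr61, Mir155 and Dusp26, with the number of genes per list in brackets. Bars are libraries in the order of the key, and no bar is above 3 genes.

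The sites most like each recurring site were those of genes whose best-ranked region within 10 kb was in exactly the same lists. Regions whose windows were assigned to more than a single gene were left out, as were regions of the members. The numbers of genes sharing a pattern, given below, were counted after this exclusion. Likeness was the mean absolute difference of rank, in percent of list length, over the 3 lists that held the site (2 for Cyr61). For Socs3, 16 genes shared the pattern, and the nearest were Abcc1, a drug exporter gene (7.35), Eef1a1, a translation elongation factor gene (9.33), and Ube2o (10.5). For Mir155 the nearest of the same kind were Bet1 (1.84), Eef1a1 (2.06) and Gm15760 (2.51). For Zfp36, 17 genes shared the pattern, led by 4930568G15Rik (1.85), Disp1 (3.56) and Abcc4, another exporter gene (4.23). For Dusp26, 17 genes did, led by Zfyve20 (1.23), Hspb8, a small heat shock protein gene (3.12), and Esd (3.26). For Cyr61, 19 genes did, led by Trmt13 (0.372), Strn3 (1.28) and Ifi35 (2.25).

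Fibroblast marker genes with a peak within 10 kb numbered 0, 2, 1 and 0 of 12, and macrophage marker genes 1, 0, 1 and 2 of 10, in the order of groups given at the start. Over all genes the shares were 4.0%, 3.07%, 6.21% and 2.26%. Peak lists do not measure expression, so they check neither the cell type nor the GCN2 label.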

How the data were processed

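NRF2 ChIP-seq peak lists of 4 libraries, 1 per condition, were analysed. Reads were single and 50 bp long, per the labels' protocols. BWA 0.7.12, MACS2 2.1.0 and HOMER 4.7 on mm10 are named in the submitters' processing notes, without settings. Each library was set against the complete-medium input of its genotype, and windows of 300 bp were annotated with HOMER, per the file headers. The authors deposited a whole-number score per peak, at least 13 in every list, on a scale that the sources used here do not give. GC and CpG content were deposited as a fraction of the window. Read depth is unknown.

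Peaks of the 5 genes were taken by symbol, ranked within each list (ties share the best rank) and joined where they overlapped by 1 bp. The members and gene lists were chosen with earlier results of these data known. With 1 library per condition there is no replicate check and no p-value. The exact (Clopper-Pearson) 95% intervals reflect counting error alone. Symbols of the 124 list entries were matched to GRCm38.p6 by identifier, and all matched. In the lists, named genes were those with a peak within 10 kb in 2 or more NRF2 lists and the 3 best-ranked others per gene list at most, beside the 5 genes, Hmox1, Nqo1, Gclc and the 3 most similar sites per gene. Fibroblast and macrophage markers were only counted as genes near a peak. Alternatives changed the distance limit, score threshold, list length, repeat windows and overlap rule. Joining and overlap code was tested on simulated windows. Python 3.11.15 with pandas 2.3.3 and scipy 1.17.1 was used.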

Additional observations from a re-analysis of the deposited data

How the results depend on the processing

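Of 55 alternative values for the counts per list and for the regions in more than 1 list, 33 stayed within 1.5 times the reported count. The count of 5 regions in more than 1 list was the same with a reciprocal overlap of 50%, with centres within 100 bp and with windows widened by 500 bp. With centres within 100 bp the Socs3 site was in 2 lists, against 3 as reported. Without windows annotated to repeats, genes with a peak in leucine-free WT cells numbered 2, and peaks numbered 2 in leucine-free GCN2 KO cells and 3 in leucine-free WT cells. The Mir155 and Dusp26 sites were then each left in 1 list. The wider lists depended on the distance limit. In the order of groups used in the report, the 114 genes other than the members included 4, 4, 7 and 4 with a peak within 10 kb, 1, 1, 1 and 2 within 1 kb, 12, 8, 21 and 9 within 50 kb, and 19, 16, 26 and 17 at any distance. With only the top 50% of each list by score, the counts within 10 kb were 2, 2, 4 and 0, and at the length of the shortest list, 2336 peaks, they were 2, 2, 3 and 4. Of 175 further values for single gene lists and single sites, 67 moved by more than 1.5 times. Without read depth, weaker binding and shallower sequencing cannot be told apart where a list lacks a peak.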
